A study of Mus musculus with 8 samples.

Results

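The hypoxia-inducible genes and the regulators of the hypoxia-inducible factors (HIF) were examined as a set of 35 genes, chosen by symbol from the 18251 genes of the deposited count table. Glycolytic enzymes and secreted angiogenic factors were left out of the set by its definition. All 35 were in the table, and 33 passed the filter on low counts. The 2 that did not, Car12 (a membrane carbonic anhydrase) and Ppp1r3c (a glycogen-targeting phosphatase subunit), had at most 3 and 5 reads in any tumour.

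RNA was sequenced in bulk from subcutaneous tumours of MC38, a mouse colon cancer line, grown in male C57 mice that were 7 weeks old when used. All tumour cells, in both groups, carried TetOn-CXCL14, a construct that makes the chemokine CXCL14 in the presence of the tetracycline analogue doxycycline (DOX). The 4 tumours of the DOX group came from mice given DOX at 1 mg/mL in the drinking water over 3 days, and the 4 control tumours were untreated. The labels give 300 mm³ both as the size at the start of DOX and as the size at harvest. Whether the cells were 1 clone is not stated in the labels. No group with DOX and without the construct was analysed here, so what DOX does and what CXCL14 does cannot be told apart.

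HIF is a pair of proteins, an oxygen-sensitive alpha subunit and its stable partner ARNT. While oxygen is present, prolyl hydroxylases of the EGLN family mark the alpha subunit, the ubiquitin ligase component VHL binds it, and it is degraded; a second oxygen-dependent enzyme, encoded by Hif1an, blocks its use of coactivators. When oxygen falls, the alpha subunit accumulates and switches on genes for mitochondrial turnover, acid export, collagen maturation and metabolism, among them genes for its own hydroxylases. In solid tumours these genes mark regions far from blood vessels, and most of the control of HIF alpha is on the protein, which RNA sequencing does not measure.

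HIF binds DNA at the hypoxia response element, whose core is ACGTG or GCGTG. The table of RefSeq promoters (build GRCm38.p6) held at least 1 start site for 27 of the 35 members, with 35 windows of 250 bases before the start. The windows of 6 members are shown because these genes carry the differences described below, or, for Hif1a, the opposite sign. Capitals mark every ACGTG or GCGTG, read on either strand (CACGT and CACGC on the printed strand), and neighbouring matches merge where they overlap.
Kdm3a, minus strand, chr6:71632918-71633167: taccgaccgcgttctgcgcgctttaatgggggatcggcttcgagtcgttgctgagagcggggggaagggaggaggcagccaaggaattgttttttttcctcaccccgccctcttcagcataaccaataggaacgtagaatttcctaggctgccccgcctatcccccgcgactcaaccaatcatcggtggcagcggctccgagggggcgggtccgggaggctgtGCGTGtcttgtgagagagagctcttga
Ddit4, minus strand, chr10:59951771-59952020: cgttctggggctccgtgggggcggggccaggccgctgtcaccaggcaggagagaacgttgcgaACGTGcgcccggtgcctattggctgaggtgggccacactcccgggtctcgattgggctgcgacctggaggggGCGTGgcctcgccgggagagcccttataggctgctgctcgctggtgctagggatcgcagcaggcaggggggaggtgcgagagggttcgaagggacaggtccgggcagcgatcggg
Ankrd37, minus strand, chr8:45999851-46000100: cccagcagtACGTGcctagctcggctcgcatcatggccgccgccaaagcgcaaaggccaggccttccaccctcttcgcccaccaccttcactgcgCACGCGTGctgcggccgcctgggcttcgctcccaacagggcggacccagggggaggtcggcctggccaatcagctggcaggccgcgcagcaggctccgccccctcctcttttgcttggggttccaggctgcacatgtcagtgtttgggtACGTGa
Bnip3, minus strand, chr7:138909507-138909756: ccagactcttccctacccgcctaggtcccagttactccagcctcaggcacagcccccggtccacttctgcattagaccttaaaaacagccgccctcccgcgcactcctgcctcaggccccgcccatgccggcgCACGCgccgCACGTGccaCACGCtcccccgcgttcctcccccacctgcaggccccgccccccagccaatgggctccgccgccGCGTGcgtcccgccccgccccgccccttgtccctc
Higd1a, minus strand, chr9:121857797-121858046: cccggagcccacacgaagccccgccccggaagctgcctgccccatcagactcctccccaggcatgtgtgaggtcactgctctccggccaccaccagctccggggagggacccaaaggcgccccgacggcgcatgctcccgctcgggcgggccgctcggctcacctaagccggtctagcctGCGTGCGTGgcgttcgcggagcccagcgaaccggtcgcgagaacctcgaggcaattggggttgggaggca
Hif1a, plus strand, chr12:73907617-73907866: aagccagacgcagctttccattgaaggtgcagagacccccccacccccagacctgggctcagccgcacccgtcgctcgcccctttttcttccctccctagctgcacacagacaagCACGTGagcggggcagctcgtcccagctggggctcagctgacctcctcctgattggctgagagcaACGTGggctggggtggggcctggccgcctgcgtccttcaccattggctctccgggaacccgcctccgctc

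The windows of Ankrd37 and Hif1a lie inside the annotated span of their genes, which have further starts upstream. The Kdm3a window is the outermost of 3, and the other 2 held no match. Bnip3 had 5 matches, with ACGTG on both strands in the palindrome CACGTG, 108 bases before the start. Higd1a had a pair of overlapping GCGTG matches, and Hif1a had 3 matches of ACGTG and 0 of GCGTG. Of the 27 members with a window, 24 (88.9%) held at least 1 match, against 41.5% of 27025 genes, and the 3 without were Vhl, Hif1an and Car12. ACGTG was found in 66.7% of the members and 18.5% of all genes, and GCGTG in 70.4% and 30.9%. The member windows were also richer in CG pairs, with a median of 19 against 6 in all 32851 windows; both cores contain CG, and the part of base composition in these shares was not tested. A match is a stretch of letters and does not show that HIF binds there.

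**Figure D1:**
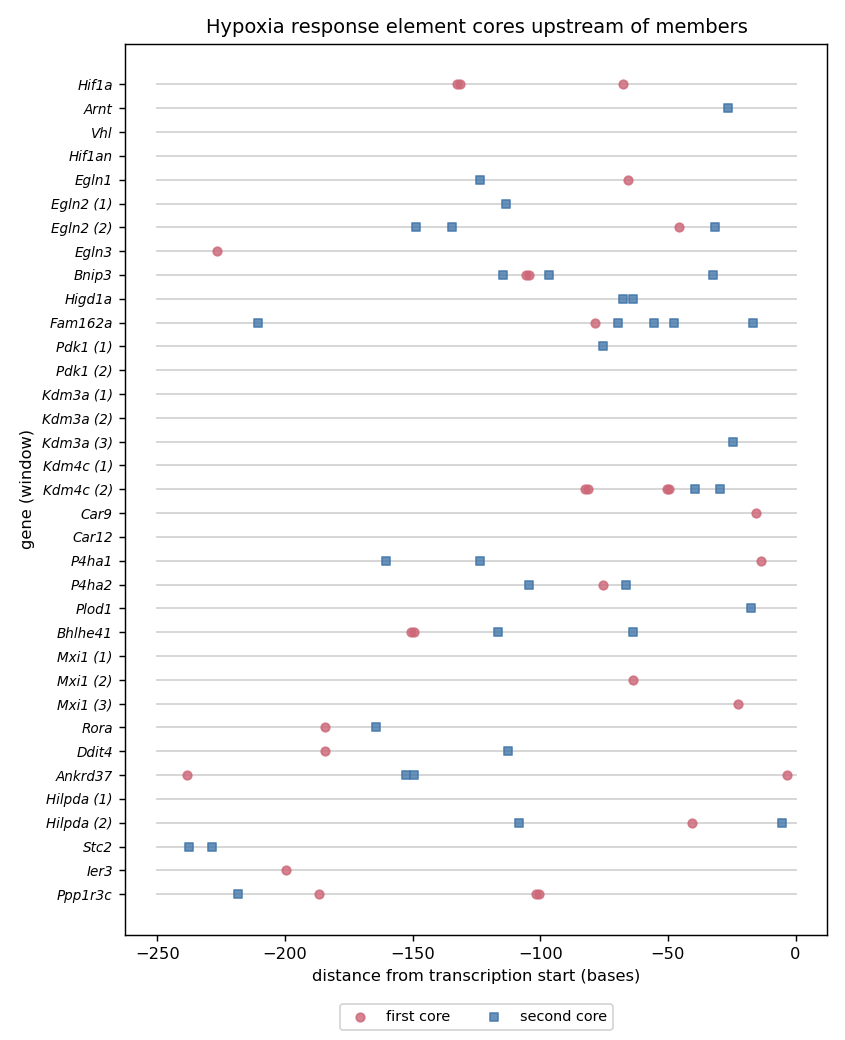
Positions of the hypoxia response element cores in the 250 bases before each annotated start of 27 members. Each grey line is a window, circles are ACGTG (first core) and squares GCGTG (second core) on either strand, and the x axis is the distance from the start in bases; Vhl, Hif1an and Car12 have none.

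The libraries were of like depth, with 18685975 to 19307481 counts per tumour. Cxcl14 stood at 8.30 to 9.69 CPM in control and 15.8 to 30.2 CPM in DOX tumours, so each library followed its label (CPM scales counts to library size, here with TMM factors between tumours). On the first principal component of all tested genes DOX tumour 1, at -10.5, lay among the controls (-27.3 to -9.4). The other DOX tumours lay apart (14.9 to 43.1). Some of the results below are also given without DOX tumour 1. Epithelial markers were nearly absent from these colon cancer tumours: Epcam had at most 7 reads, Krt18 at most 2 and Krt8 at most 19 in any tumour, while Cdh1 had 92 to 363. In bulk tissue fewer cells of a type and less RNA per cell cannot be told apart.

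Most hypoxia-inducible members were on the lower side in DOX tumours, and the HIF alpha subunits were on the higher side. Of the 33 tested members 27 had a negative and 6 a positive log2 fold change, with a median of -0.39. Over all 13436 tested genes 7142 were negative and 6294 positive, with a median of -0.01. In edgeR's quasi-likelihood test 0 members passed a Benjamini-Hochberg adjusted p of 0.05 in either direction (0% of all genes lower, 0.00744% higher), with adjusted p-values of 0.387 to 0.959. Without adjustment 18 members were lower and 2 higher at p below 0.05, where 3.95% of all tested genes were lower and 7.65% higher. DESeq2 called 4 members lower (Kdm3a, Ddit4, Ankrd37 and Bnip3) and 0 higher, against 0.151% of genes called lower and 0.468% higher. All DOX values were under all control values in 4 members (Kdm3a, Ddit4, Bnip3l and Higd1a) and over them in 0, where 2.43% of all genes were below and 3.23% above. The count of 18 rested on single tumours: it was 8 without control tumour 1, 8 without control tumour 2, 10 without DOX tumour 2, 9 without DOX tumour 3 and 10 without DOX tumour 4, and 19 without DOX tumour 1. The count of 2 was 1 without control tumour 1 or control tumour 3, and 0 without control tumour 2, DOX tumour 2 or DOX tumour 4.

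**Figure D2:**
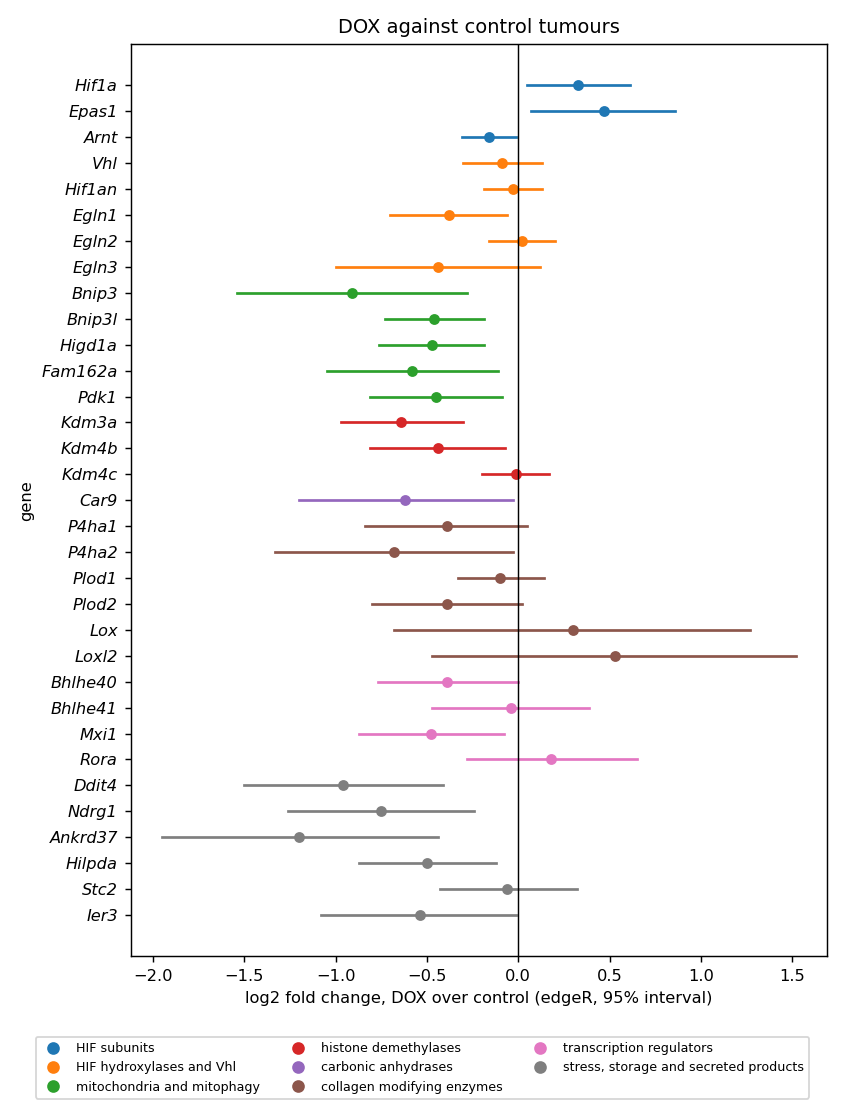
Log2 fold change of DOX over control tumours (x axis) with its 95% interval for each of the 33 tested members, from edgeR and coloured by role. The mitochondrial genes lie wholly to the left of 0, Hif1a and Epas1 lie to the right, and Lox and Loxl2 have the widest intervals.

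Control tumours 1 and 2 stood above the rest in these genes. The deviation from a gene's mean log2 CPM over the 8 tumours had a median over the members of 0.41, 0.39, 0.02 and -0.11 in control tumours 1 to 4 and of 0.02, -0.18, -0.21 and -0.26 in DOX tumours 1 to 4. The groups overlapped, since DOX tumour 1 lay above control tumour 4, and the median over all genes was -0.01 to 0.01 in every tumour. Control tumours 1 and 2 both exceeded all 6 other tumours in 20 of 33 members, or 60.6%, against 6.60% of all tested genes; this count was chosen after the values were seen. Control tumour 1 was the highest of the 8 in 13 of 33 members, against 19% of all tested genes. Control tumour 2 was the highest in 12 members, against 15% of all tested genes. DOX tumour 4 was the lowest in 15 members, against 22.6% of all tested genes. It was the highest in 3 members, against 24.2% of all tested genes. Within the control group the median SD of a member was 0.306 on the log2 scale, against 0.152 for all tested genes, and within the DOX group it was 0.259 against 0.134.

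**Figure D3:**
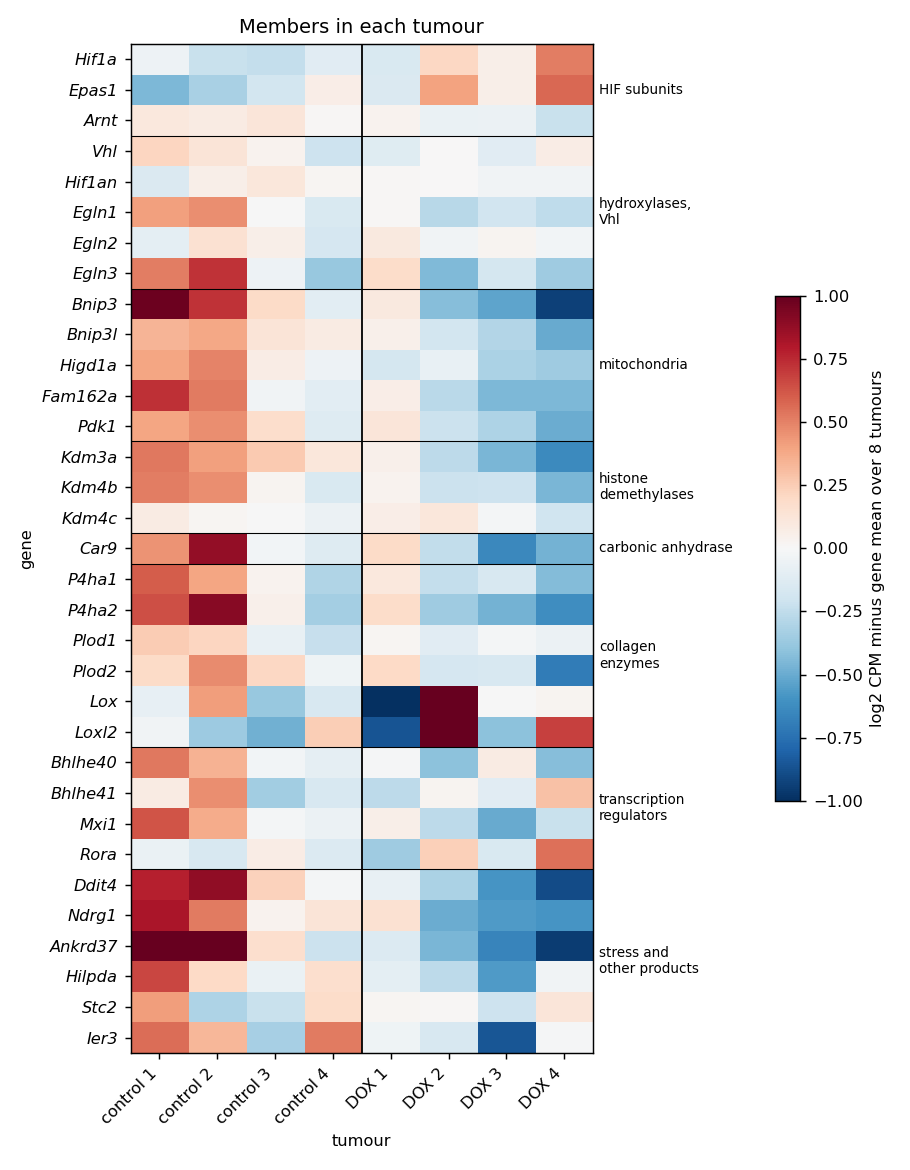
Deviation of each tested member's log2 CPM from its mean over the 8 tumours, with genes in rows by role and tumours in columns; the colours end at 1 and -1. Control tumours 1 and 2 are red and DOX tumour 4 blue for most rows, and Hif1a and Epas1 show the reverse.

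The HIF alpha subunit genes were on the higher side in DOX tumours. Hif1a, the main oxygen-regulated subunit, stood at 188, 168, 166 and 181 CPM in control tumours 1 to 4 and at 176, 226, 203 and 279 CPM in DOX tumours 1 to 4. DOX tumours 2, 3 and 4 were above every control, and DOX tumour 1 was among the controls. The log2 fold change of Hif1a was 0.33 ± 0.13 (SE), with an edgeR adjusted p of 0.394 and a 95% interval of 0.05 to 0.61. It was 0.20 without DOX tumour 4 and 0.42 without DOX tumour 1. Epas1, which encodes HIF-2 alpha, had 7.59, 8.29, 9.18 and 10.9 CPM in control and 9.42, 13.9, 10.9 and 15.6 CPM in DOX tumours. DOX tumours 1 and 3 lay inside the control range, DOX tumour 3 only just under control tumour 4, so the groups overlapped. The log2 fold change of Epas1 was 0.47 ± 0.18 (SE), with an edgeR adjusted p of 0.394. Per gene length Hif1a was far above Epas1, with a mean of 40.4 against 1.70 FPKM in control tumours. Arnt, the constant partner, had 84.6, 82.9, 85.3 and 79.2 CPM in control and 80.4, 74.8, 75.3 and 67.2 CPM in DOX tumours. Arnt overlapped only through DOX tumour 1 and control tumour 4, and its log2 fold change was -0.16 ± 0.07 (SE; edgeR adjusted p = 0.408). Counts of Epas1 were whole numbers in 0 of 8 libraries and those of Arnt in 3 of 8, so both hold shared reads.

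Markers of macrophages moved with the alpha subunits. The summed level of 10 macrophage genes was 2417 to 3264 CPM in control tumours and 3598, 4873, 4382 and 7312 CPM in DOX tumours 1 to 4, and all 10 were on the higher side, 8 of them at an unadjusted p below 0.05. DOX tumour 4 was highest in this sum, in Hif1a and in Epas1. The other tumours did not keep the same order. Control tumour 1 had the lowest sum, 2417 CPM, and the highest Hif1a of the controls, 188 CPM. The sum of DOX tumour 1 was above every control, while its Hif1a (176 CPM) and Epas1 (9.42 CPM) lay inside the control range. The 10 T cell genes summed to 28.9 to 71.0 CPM in control and 70.9 to 228 CPM in DOX tumours, with 10 of 10 higher at an unadjusted p below 0.05. The 10 skeletal muscle genes summed to 6.01 to 63.4 CPM in control and 27.3 to 231 CPM in DOX tumours, with 7 of 10 higher at that level. Of all tested genes 7.65% were higher at that level. No gene of these 3 lists was at 0 in all tumours. The part of these cells in the levels of Hif1a, Epas1 or the other members was not tested.

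Of the hydroxylase genes and Vhl, Egln1 was the 1 lower at an unadjusted p below 0.05. Egln1, the main HIF prolyl hydroxylase, stood at 167, 173, 125 and 113 CPM in control and at 127, 103, 110 and 105 CPM in DOX tumours. Control tumours 1 and 2 were well above the rest, while control tumours 3 and 4 lay within the DOX range. Its log2 fold change was -0.38 ± 0.14 (SE; edgeR adjusted p = 0.394). Egln3, the most strongly hypoxia-inducible of the family, had 127, 147, 85.7 and 68.3 CPM in control and 101, 65.6, 78.8 and 69.4 CPM in DOX tumours, so the same pair of controls was high and the others overlapped. Its interval, -1 to 0.12 on the log2 scale, included 0.

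The intervals of Egln2, Hif1an and Vhl included 0. Egln2, the prolyl hydroxylase that hypoxia does not induce, stood at 40.5, 48.2, 45.2 and 38.5 CPM in control and 46.3, 42.3, 44.1 and 42.6 CPM in DOX tumours, with an interval of -0.16 to 0.20. Hif1an, the asparaginyl hydroxylase gene, had 30.4, 35.1, 36.4 and 34.1 CPM in control and 33.9, 33.7, 32.8 and 32.9 CPM in DOX tumours. Its interval was -0.19 to 0.13, and all 4 DOX tumours lay inside the control range. Vhl, the substrate receptor for hydroxylated HIF, had 37.7, 35.6, 33.4 and 28.1 CPM in control and 29.9, 32.6, 30.1 and 34.3 CPM in DOX tumours, with an interval of -0.30 to 0.13. The direction of Egln2 changed when control tumour 1, control tumour 4 or DOX tumour 1 was left out, and that of Hif1an without control tumour 3.

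All 5 mitochondrial members were lower in DOX tumours at an unadjusted p below 0.05, where 3.95% of all tested genes were lower. Bnip3l and Bnip3 encode the related receptors NIX and BNIP3, which mark mitochondria for mitophagy. Bnip3l stood at 165, 170, 142 and 138 CPM in control and 135, 114, 106 and 91.5 CPM in DOX tumours, without overlap but with only a narrow gap between control tumour 4 and DOX tumour 1. Its log2 fold change was -0.46 ± 0.12 (SE; edgeR adjusted p = 0.387). Bnip3 had 391, 328, 227 and 184 CPM in control and 212, 148, 138 and 104 CPM in DOX tumours. DOX tumour 1 lay above control tumour 4, and Bnip3 had a log2 fold change of -0.91 ± 0.28 (SE), with an edgeR adjusted p of 0.387 and a DESeq2 adjusted p of 0.0471. The 5 cores before the Bnip3 start are printed above.

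Higd1a, a small inner-membrane protein gene of the respiratory chain, had 56.5, 60.7, 45.3 and 41.4 CPM in control and 37.9, 40.9, 34.5 and 33.6 CPM in DOX tumours. Its groups were separated by 40.9 against 41.4 CPM, so the lack of overlap was slight; the log2 fold change was -0.47 ± 0.13 (SE; edgeR adjusted p = 0.387). Fam162a, a mitochondrial protein gene linked to hypoxic cell death, stood at 164, 141, 96.5 and 91.6 CPM in control and 103, 82.0, 72.2 and 72.4 CPM in DOX tumours. Pdk1, the kinase that keeps pyruvate out of the mitochondrion, had 125, 132, 108 and 87.0 CPM in control and 104, 82.2, 76.8 and 67.5 CPM in DOX tumours. In both genes control tumours 1 and 2 were the highest and DOX tumour 1 exceeded control tumour 4, with log2 fold changes of -0.58 ± 0.21 for Fam162a and -0.45 ± 0.16 for Pdk1 (SE). Per gene length Fam162a and Bnip3 were the most abundant members, at 194 and 165 FPKM in control tumours and 131 and 88.6 FPKM in DOX tumours. Higd1a and Pdk1 had whole-number counts in 0 of 8 libraries.

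**Figure D4:**
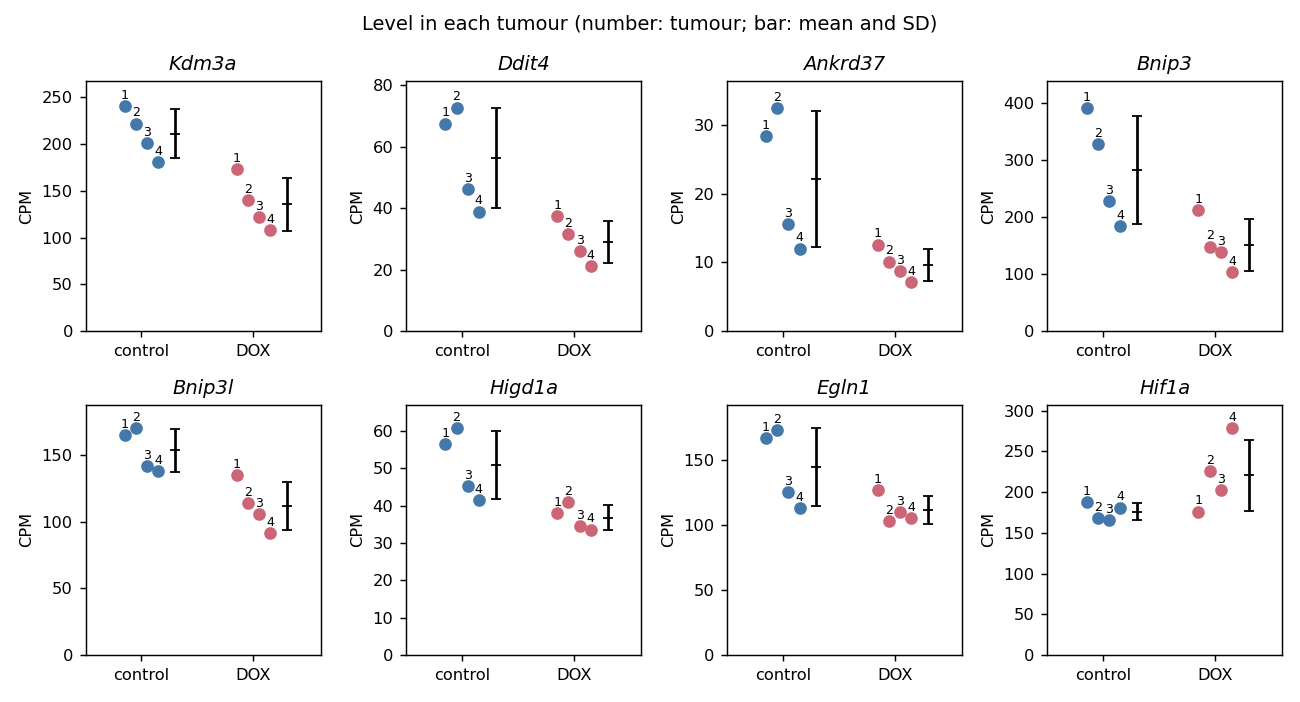
CPM of 8 members in each tumour, with the tumour number beside each point and the mean and SD at the right of each group (n = 4). The groups are apart in Kdm3a, Ddit4, Bnip3l and Higd1a, and overlap through DOX tumour 1 in Ankrd37, Bnip3 and Egln1. In Hif1a the direction is reversed, and the groups again overlap through DOX tumour 1.

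Of the 3 histone demethylase genes, whose enzymes need oxygen to remove methyl groups, Kdm3a and Kdm4b were lower at an unadjusted p below 0.05 and Kdm4c did not reach that level. Kdm3a, which acts on histone H3 lysine 9, had the smallest p of all members. It stood at 241, 222, 201 and 181 CPM in control and at 173, 140, 122 and 108 CPM in DOX tumours. Every DOX tumour was below every control, by 173 against 181 CPM at the nearest, and the log2 fold change was -0.64 ± 0.15 (SE; edgeR adjusted p = 0.387, DESeq2 adjusted p = 0.0227). Kdm4b had 55.4, 53.8, 39.6 and 35.0 CPM in control and 39.8, 33.6, 33.6 and 28.3 CPM in DOX tumours. DOX tumour 1 exceeded control tumours 3 and 4 in Kdm4b, whose log2 fold change was -0.44 ± 0.16 (SE; edgeR adjusted p = 0.392, DESeq2 adjusted p = 0.197); its count was whole in 0 of 8 libraries. Kdm4c, at 23.4 to 25.8 CPM in control and 21.2 to 26.4 CPM in DOX tumours, had an interval of -0.20 to 0.17.

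The stress, storage and secreted products held the 2 largest differences, with 5 of 6 tested genes lower at an unadjusted p below 0.05. Of all tested genes 3.95% were lower at that level. Ddit4, whose product REDD1 restrains mTOR signalling, had 67.5, 72.7, 46.1 and 38.9 CPM in control and 37.3, 31.5, 26.1 and 21.1 CPM in DOX tumours. Every DOX tumour was below every control, although control tumour 4 and DOX tumour 1 were close, and the log2 fold change was -0.96 ± 0.24 (SE; edgeR adjusted p = 0.387, DESeq2 adjusted p = 0.0226). Ankrd37, an ankyrin-repeat gene that HIF-1 activates directly, stood at 28.4, 32.4, 15.6 and 12 CPM in control and 12.6, 10.1, 8.72 and 7.11 CPM in DOX tumours. Its log2 fold change, -1.20 ± 0.33 (SE; edgeR adjusted p = 0.387, DESeq2 adjusted p = 0.0256), was the largest among the members, and DOX tumour 1 was above control tumour 4. Exons of Ankrd37 overlap those of Ufsp2 on the other strand, and the strand setting of the counting is unknown here; Ufsp2 itself, named for this overlap, had a log2 fold change of -0.12 ± 0.07 (SE).

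Ndrg1, a stress-response gene of the N-myc downstream-regulated family, had 338, 276, 197 and 209 CPM in control and 214, 136, 129 and 127 CPM in DOX tumours. DOX tumour 1 stood with control tumours 3 and 4, far from the other DOX tumours, and the log2 fold change of -0.75 ± 0.22 became -0.96 without it. Hilpda, a lipid-droplet protein gene, stood at 38.2, 27.6, 23.0 and 27.0 CPM in control and 22.4, 20, 16.1 and 23.4 CPM in DOX tumours, overlapping slightly at control tumour 3 (log2 fold change -0.50 ± 0.17, SE). Ier3, an early-response survival gene, ranged from 15.2 to 28.2 CPM in control and from 10.5 to 19.0 CPM in DOX tumours, with -0.54 ± 0.23 (SE). Stc2, a secreted glycoprotein gene that endoplasmic reticulum stress also induces, was at 7.83 to 13.0 CPM in control and 8.41 to 10.6 CPM in DOX tumours, and its interval was -0.43 to 0.32.

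ATF4, the transcription factor of the integrated stress response, also controls Ddit4 and Stc2. The 12 ATF4 stress response genes listed beside the members summed to 3064, 1982, 2000 and 2189 CPM in control tumours 1 to 4 and to 1893 to 2036 CPM in DOX tumours. Control tumour 1 was high and control tumour 2 was not, whereas Ddit4 was high in both. Stc2, at 13.0, 7.83, 8.30 and 11.0 CPM in control tumours 1 to 4, was high in control tumour 1 and not in control tumour 2. Of the 12 genes 11 were on the lower side, with a median log2 fold change of -0.32, and 1 was lower at an unadjusted p below 0.05. The part of this response in the levels of Ddit4 and Stc2 was not tested.

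Car9, the cell-surface carbonic anhydrase that exports acid and a common marker of tumour hypoxia, was low, with 6.44 FPKM in control and 4.28 FPKM in DOX tumours. Its levels were 13.1, 17.7, 9.39 and 8.74 CPM in control and 10.9, 8.04, 6.06 and 6.84 CPM in DOX tumours, with DOX tumour 1 inside the control range. The log2 fold change was -0.62 ± 0.26 (SE; edgeR adjusted p = 0.413), and it was -0.38 without control tumour 2, the highest of the 8. Car9 counts were whole in 0 of 8 libraries.

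The enzymes of collagen maturation lay on both sides of 0. The prolyl hydroxylase subunit genes P4ha1 and P4ha2, which stabilise the collagen helix, and the lysyl hydroxylase gene Plod2, which prepares collagen for cross-linking, were on the lower side. P4ha2 ranged from 61.1 to 145 CPM in control and from 50.1 to 87.8 CPM in DOX tumours (log2 fold change -0.68 ± 0.28, SE), and P4ha1 from 289 to 542 CPM and from 263 to 382 CPM (-0.39 ± 0.19, SE). Plod2 had -0.39 ± 0.18 (SE), and its lowest value, 207 CPM, was in DOX tumour 4, against 299 to 387 CPM in the other DOX tumours. Only P4ha2 of the 6 collagen enzymes reached an unadjusted p below 0.05. Without control tumour 2, the highest of the 8, its log2 fold change was -0.45. Plod1, another lysyl hydroxylase, had an interval of -0.33 to 0.14.

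Lox and Loxl2, which encode secreted lysyl oxidases that cross-link collagen and elastin, were higher in 1 DOX tumour above all. Lox stood at 5.45 to 9.59 CPM in control and at 3.42, 16.8, 7.10 and 7.27 CPM in DOX tumours, and Loxl2 at 4.83 to 8.04 CPM in control and at 3.67, 15.9, 5.07 and 11.0 CPM in DOX tumours. DOX tumour 2 was the highest and DOX tumour 1 the lowest of the 8 in both genes. The intervals were wide, -0.68 to 1.27 for Lox and -0.47 to 1.52 for Loxl2, and without DOX tumour 2 the log2 fold change of Lox was -0.25. The 10 fibroblast genes mark a cell type that makes these enzymes. They summed to 4191 to 7873 CPM in control and 4096 to 6569 CPM in DOX tumours, and to 5017 CPM in DOX tumour 2. Most of this last sum was Col3a1, at 2798 CPM, which lay below every control. Single genes of the list differed in DOX tumour 2. Lum peaked there at 4.88 CPM, and Col1a2, at 325 CPM, was exceeded only by control tumour 1 (345 CPM). Dcn, at 408 CPM, was the lowest of its group. The part of fibroblasts in the levels of Lox and Loxl2 was not tested. Loxl2 counts were whole in 0 of 8 libraries.

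Of the 4 transcription regulators Bhlhe40 and Mxi1 were lower at an unadjusted p below 0.05. Mxi1, a MAX-binding antagonist of MYC, had 98.9, 82.7, 63.2 and 61.5 CPM in control and 66.8, 53.3, 45.1 and 54.9 CPM in DOX tumours. DOX tumour 1 alone reached into the control range, and the log2 fold change was -0.48 ± 0.17 (SE; edgeR adjusted p = 0.388). Bhlhe40, a repressor that HIF-1 and the circadian clock both control, ranged from 132 to 202 CPM in control and from 105 to 149 CPM in DOX tumours (-0.39 ± 0.17, SE). Its paralogue Bhlhe41, at 6.33 to 11.2 CPM in control and 6.73 to 9.94 CPM in DOX tumours, had an interval of -0.47 to 0.39. The nuclear receptor gene Rora, the tested member with the lowest level per gene length at 0.555 FPKM in control tumours, stood at 3.68 to 4.36 CPM in control and 3.21 to 6.09 CPM in DOX tumours, with an interval of -0.28 to 0.65.

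Genes of the pathway outside the set were listed as well, and most of them were on the lower side. Like the members, they were chosen with earlier results of these data known. Of the 61 tested genes of 3 such lists 44 were on the lower and 17 on the higher side, against 7142 and 6294 of all 13436 tested genes. At an unadjusted p below 0.05, 17 of the 61 were lower and 3 higher, against 3.95% and 7.65% of all tested genes. In edgeR 0 passed the adjusted threshold. DESeq2 called 5 of the 61 lower and 0 higher at an adjusted p below 0.05, namely Ero1a, Gbe1, Ccng2, Adm and Apln. The other hypoxia-inducible genes had a median log2 fold change of -0.22, with 8 of 29 lower and 1 higher at an unadjusted p below 0.05. Gbe1, the glycogen branching enzyme, stood at 39.1 to 43.8 CPM in control and 27.5 to 34.3 CPM in DOX tumours without overlap, with a log2 fold change of -0.37 ± 0.08 (SE). Ccng2, an unconventional cyclin gene, had -0.61 ± 0.15 and Zfp292, a zinc finger gene, -0.43 ± 0.12 (SE), both also without overlap. Ero1a, the oxidase that drives disulphide formation in the endoplasmic reticulum, had 543, 499, 289 and 338 CPM in control and 311, 221, 192 and 175 CPM in DOX tumours (-0.89 ± 0.25, SE). Control tumours 1 and 2 were again the highest.

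Glycolytic and angiogenic targets, 15 in number, had a median of -0.30, with 8 lower and 1 higher at an unadjusted p below 0.05. Of all tested genes 3.95% were lower and 7.65% higher at that level. The 4 targets with the smallest p were Apln, Pgk1, Adm and Slc2a3. Apln, which encodes apelin, was at -0.62 ± 0.12 on the log2 scale, and the glycolytic kinase gene Pgk1 had -0.47 ± 0.13 (SE), both without overlap; the vasodilator peptide gene Adm had -1.21 ± 0.33 (SE). The glucose transporter gene Slc2a3 had the opposite sign, 1.12 ± 0.33 (SE), and was highest in DOX tumour 4.

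Among genes of the HIF machinery, the 17 tested genes of the ubiquitin ligase, coactivators and chaperones had a median log2 fold change of -0.05, with 1 lower and 1 higher at an unadjusted p below 0.05. The lower one was Cited2, which competes with HIF for its coactivator and is itself HIF-induced, at -0.33 ± 0.13 (SE). The higher one was Os9, a lectin of endoplasmic reticulum quality control, at 0.14 ± 0.06 (SE). Ubxn7, an adaptor between the ligase and p97, had -0.14 ± 0.07, and the deubiquitinase gene Usp33 -0.15 ± 0.08 (SE).

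**Figure D5:**
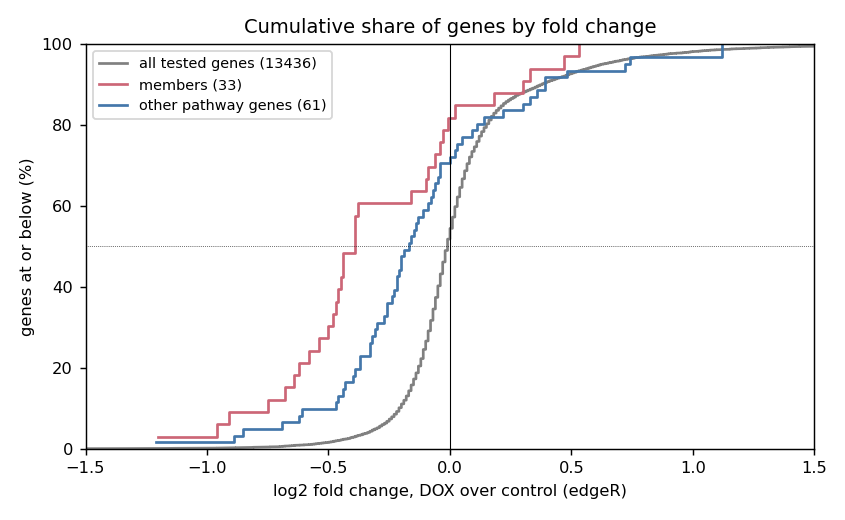
Cumulative share of genes (y axis, percent) by log2 fold change of DOX over control tumours (x axis, cut at -1.5 and 1.5) for the 33 members, the 61 other pathway genes and all 13436 tested genes. The dotted line marks the median, which lies at -0.39, -0.17 and -0.01.

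The summed endothelial genes overlapped between the groups. The 10 genes summed to 109 to 172 CPM in control and 117 to 184 CPM in DOX tumours. Their median log2 fold change was 0.07, with Eng as the 1 gene higher at an unadjusted p below 0.05 (0.51 ± 0.17, SE). Eng was also the 1 gene of the 10 with every DOX tumour above every control, by 35.9 against 35.6 CPM at the nearest. The sum was 172 and 139 CPM in control tumours 1 and 2, where the hypoxia-inducible members were highest, and 145 and 109 CPM in control tumours 3 and 4. The part of vessels in the levels of the members was not tested.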

How the data were processed

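Bulk mRNA sequencing of 8 tumours was compared, 4 DOX with 4 control, each from its own mouse, so p-values measure the spread between animals. HISAT, Bowtie2 and GRCm38.p6 are named in the submitters' processing notes; which tool counted, with which annotation and strand setting, is not stated there. The authors deposited expected counts per gene (64.9% of values whole within 0.005), which were rounded here, and FPKM, scaled by the authors to gene length and library size per the file headers. A further table of 8 columns matching no label was not used.

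edgeR 4.0.16 (R 4.3.3) was run on all genes passing filterByExpr (13436), with TMM scaling, the robust quasi-likelihood test and Benjamini-Hochberg adjustment at 0.05. The SE is the log2 fold change divided by the square root of F. The common biological coefficient of variation was 14.7%. No 2 libraries agreed within sampling noise (chi-square per degree of freedom 5.25 to 71.7). The alternatives were DESeq2 1.42.0, limma 3.58.1 on log2(FPKM + 1) and log2(FPKM + 0.1), other scaling and filters, a replicate block and leaving out each tumour. On simulated counts edgeR recovered 63.3% of genes changed 1.5-fold and 81.2% of those changed 2-fold (13328 genes run), with 12 false calls in 177. DESeq2 made 25 false calls in 195. Each gene was simulated independently of the others, so these shares do not say how many real changes were found. In the real tumours edgeR called 1 gene of 13436.

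The members and all lists, 15 beside the roles of the members, were chosen with earlier results of these data known. Values in every tumour were given for the 12 members with the smallest p, those without overlap, the HIF subunits and their regulators, and Car9; up to 4 genes were named per pathway list. Exons of 15 members overlap another gene in GENCODE M21, so their reads may not have been separated. Loci were matched by symbol to RefSeq (GRCm38.p6).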

Additional observations from a re-analysis of the deposited data

Results flagged for a closer look

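Ndrg1 in DOX tumour 1 stood apart from its group, at 214 CPM against 127 to 136 CPM in the other 3 DOX tumours, a gap of 0.903 of the group's range. Among 66 groups examined (33 members in both groups) this was the 1 flagged, where chance flags about 1 in 20.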

How the results depend on the processing

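The median log2 fold change of the members kept its sign in all 16 alternatives and moved by less than the spread between tumours, from -0.50 without DOX tumour 1 to -0.33 without control tumour 1 or 2. DESeq2 called 4 members lower in place of 0. The numbers of members lower and higher at an unadjusted p below 0.05, 18 and 2, ranged from 8 to 20 and from 0 to 2 when each tumour was left out, and the 17 other pathway genes on the lower side at that level ranged from 11 to 23. Leaving out a tumour turned the sign of Egln2 (-0.03 to 0.08), Kdm4c (-0.06 to 0.05), Stc2 (-0.15 to 0.09), Bhlhe41 (-0.15 to 0.14), Hif1an (-0.08 to 0.00) and, through DOX tumour 2 alone, Lox (-0.25 to 0.56). The replicate block gave 20 members lower, 2 higher and a median of -0.40. With it the lowest edgeR adjusted p of a member was 0.075, in Bnip3 and Ddit4, against 0.387 for both without it. The labels do not say whether the numbers pair the tumours. Same-numbered tumours had correlations of 0.00, 0.04, 0.09 and -0.02 in their deviations from the group means. Control tumour 2 correlated best with DOX tumour 3 (0.22). So few correlations cannot decide whether the tumours were paired. Car12 and Ppp1r3c were too low to test at this depth.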

Other observations

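Lists of other cells and states were counted beside the members. The 10 proliferation genes summed to 2112 to 2527 CPM in control and 2018 to 2263 CPM in DOX tumours, with 1 lower at an unadjusted p below 0.05. The glucocorticoid-responsive genes, of which 8 were tested, had a median log2 fold change of -0.09, with 1 lower at that level. Of the neutrophil genes 4 were tested, all on the higher side and 1 of them at that level, with sums of 154 to 257 CPM in control and 251 to 301 CPM in DOX tumours. The largest part of the sum was Mmp9, at 107 to 205 CPM in control and 170 to 223 CPM in DOX tumours. The listed markers S100a8, S100a9 and G0s2 had at most 17, 8 and 3 reads in any tumour and were not tested. The red blood cell genes summed to 55.3, 27.8, 16.4 and 6.70 CPM in control tumours 1 to 4 and 10.7 to 23.2 CPM in DOX tumours, with 0 of 4 tested at that level in edgeR and 0 called by DESeq2. The adipocyte genes summed to 2.28 to 8.41 CPM over all tumours. The epithelial genes summed to 22.2 CPM in control tumour 1 and 7.36 to 10.7 CPM in the other tumours.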
